A study of Canis lupus familiaris with 14 samples.

Results

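All 10 dogs with lymphoma in the series carried an immunophenotype label, and the array profiles of their lymph nodes were compared by that label. Of the 14 arrays in the series, 10 were lymphomas, 7 titled B-cell and 3 titled T-cell, and all 10 entered the comparison by their titles alone. The labels rest on cytology slides of each aspirate, on which CD79a staining marked a B-cell and CD3 staining a T-cell immunophenotype. The B-cell labelled dogs were RB07 and RB10 (both Boxer), NE42 (Labrador Retriever), NE41 (a Boxer mix), RB03 (Pointer), FS21 (a Pitt Bull Terrier mix) and RB16 (Chesapeake Bay Retriever). The T-cell labelled dogs were NE45 (Golden Retriever), FS25 (Boxer) and FS22 (Beagle). All were pets seen at 3 clinics (FS, NE and RB), their nodes were sampled by fine needle before a trial drug was given, and FS21 and RB07 of the B-cell dogs and FS25 and FS22 of the T-cell dogs had relapsed after earlier chemotherapy. The 4 normal lymph node arrays came from 3 untreated colony Beagles and are given beside the lymphomas as a background level. The study also sorted the same RNA by expression into a class E-J, which held 5 of the B-cell labelled dogs and FS22, and a class K-N, which held NE45 and FS25 with RB07 and RB10. RB07, RB10 and FS22 are called the crossed dogs here, and the other 7 the matched dogs. Because the classes were drawn from expression profiles of these samples, values by class are a description and carry no test.

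B cells and T cells are told apart by their antigen receptors. CD79a is a signalling chain of the B-cell receptor and CD3 is the signalling complex of the T-cell receptor, and both are kept through most of a lymphocyte's life. Behind them stand separate programs of transcription factors, with EBF1 and PAX5 fixing the B-cell fate and TCF7, LEF1 and GATA3 the T-cell fate. Lymphoma is a common cancer of dogs, in which the malignant lymphocytes usually replace most of a node and keep many genes of the lineage they came from.

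Each value below is the log2 of a MAS5 signal, averaged over the probe sets of a gene, so that a difference of 1 is a doubling. Differences are B-cell minus T-cell labelled. Every array had been scaled to the same trimmed mean, and the median signal of the probe sets was between 85.5 and 131 in the B-cell labelled arrays, between 97.3 and 109.6 in the T-cell labelled arrays and between 90.7 and 126 in the normal arrays. The share of probe sets with a signal of at least 100, the level used as a floor for testing, was 47.2% to 55.7% in B-cell, 49.4% to 51.8% in T-cell and 47.3% to 55.4% in normal arrays. The ratio of 3′ to 5′ GAPDH signal, a sign of RNA length, was 3.76 to 8.94 in B-cell, 4.81 to 7.17 in T-cell and 3.30 to 23.2 in normal arrays, with the highest value on normal node 3024l. In aspirates of whole nodes, fewer cells of a type and less RNA per cell cannot be told apart.

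The genes of the stained proteins did not divide the arrays by label. CD79A, the gene of the B-cell stain, had a log2 signal of 8.06 in RB07, the lowest of the B-cell labelled arrays, with a median of 9.81 and a highest value of 11.52 in FS21. In the T-cell labelled arrays it was 7.87 in NE45, 2.55 in FS25 and 10.09 in FS22. FS22 therefore lay above 4 of the 7 B-cell labelled arrays and within the 9.75 to 10.55 of the normal nodes, and the labels overlapped. The mean difference was 3.05 (standard error 1.41), with an adjusted p of 0.956 from limma over all genes tested and a two-sided exact permutation p of 0.0917 over the 120 assignments of the arrays. CD3E, a chain of the CD3 complex, ranged in the B-cell labelled arrays between 7.22 in RB16 and 12.54 in RB10, with a median of 8.55, and RB07 had 12.11. In the T-cell labelled arrays it was 12.56 in NE45, 12.48 in FS25 and 8.80 in FS22. RB07 and RB10 thus stood beside NE45 and FS25, and FS22 lay below the lowest normal node, at 10.15. The difference was -1.94 (standard error 1.31, limma adjusted p = 0.956), and the two-sided exact permutation p was 0.242. The smallest p that 7 arrays against 3 allow is 0.00833. ABCB1, the gene of the drug pump stained as MDR, had low signals. Its log2 signal had a lowest value of 2.55, a median of 6.66 and a highest value of 8.12 in the B-cell labelled arrays, against 6.84, 6.84 and 6.57 in NE45, FS25 and FS22 and 7.51 to 8.64 in the normal nodes. The difference of -1.02 (standard error 1.12) had a two-sided exact permutation p of 0.483, and it was 0.15 once signals under 100 were raised to 100.

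No gene passed the comparison of the labels. Testing took in the 8567 genes that reached a signal of 100 on 3 or more lymphoma arrays. Of these, 0 had a limma adjusted p under 0.05 (percent called 0), and the lowest adjusted p was 0.925. At an unadjusted p under 0.05 limma listed 313 genes (3.65%), of which 196 were higher in B-cell (2.29%) and 117 higher in T-cell labelled arrays (1.37%), and the Welch t-test of the methods gave 295 before and 0 after adjustment. The median difference over all genes was 0.003. The label accounted for 11.6% of the variance among the 10 profiles (F = 1.05), and 42 of the 120 assignments of the arrays gave as large an F, an exact permutation p of 0.35. The class accounted for 30.8% (F = 3.55), which is a description. Among the 10 lymphomas, 0 had an array of the same label as its nearest neighbour in Euclidean distance and all 10 had one of the same class. FS22 was the nearest neighbour of all 5 matched B-cell labelled arrays, at distances between 99.1 in FS21 and 109 in RB16. RB10 was the nearest of both NE45 and FS25, at 112 for each. Pairs of different label within a class had a median distance of 109 (9 pairs), whereas pairs of the same label in different classes had 139 (12 pairs).

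Leaving out single arrays showed how far the comparison leaned on them. Without FS22, ZNF804A, a zinc finger gene, passed with a difference of 4.70 (standard error 0.51, limma adjusted p = 0.0365). It ranged between 5.73 and 7.22 in the 7 B-cell labelled arrays, was 1.08 in NE45 and 2.33 in FS25, and was 8.17 in FS22. Without FS21, GSDMC, a gasdermin, passed with 3.85 (standard error 0.39, limma adjusted p = 0.0228). It had 1.86 in FS21 and between 5.99 and 7.40 in the other B-cell labelled arrays, against 3.32, 2.55 and 3.12 in NE45, FS25 and FS22. With all 10 arrays their limma adjusted p was 0.956. Both genes were near the floor. ZNF804A reached a signal of 100 in 3 of the 7 B-cell labelled arrays and in FS22. GSDMC reached it in 4 of the 7 and in no T-cell labelled array. With signals under 100 raised to 100, over all 10 arrays, ZNF804A was 1.28-fold higher in T-cell and GSDMC 1.25-fold higher in B-cell labelled arrays.

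T-cell genes followed the class, and their levels told RB07 and RB10 apart from the other B-cell labelled dogs. The 3 T-cell lists held 15 receptor and surface genes, 11 signalling genes and 8 transcription factors that were tested. None of these 34 genes was called, and none separated the labels without overlap, where 0.875% of all genes did (75 genes). By class, all 15 surface genes, 8 of the 11 signalling genes and 6 of the 8 transcription factors were higher in every K-N array than in every E-J array, against 4.73% of all genes tested. These counts depend on the filter, which a gene could pass through the K-N arrays alone, and 17 surface genes were listed. With a signal of 100 required on 5 or more arrays, 12 surface genes, 6 signalling genes and 4 transcription factors did so. The median difference between the labels was -1.52, -1.37 and -1.88 for these lists, with 31 of the 34 genes below 0.

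The plot of B-cell and T-cell genes by array shows the sorting directly. Over the 34 T-cell genes the mean log2 signal was 10.02 in RB07 and 10.08 in RB10, and between 6.35 and 7.61 in the 5 matched B-cell labelled dogs. It was 10.35 in NE45 and 10.34 in FS25 but 7.27 in FS22, and between 8.25 and 9.63 in the normal nodes. The 4 K-N arrays therefore lay above every normal node and the 6 E-J arrays below every one.

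**Figure D1:**
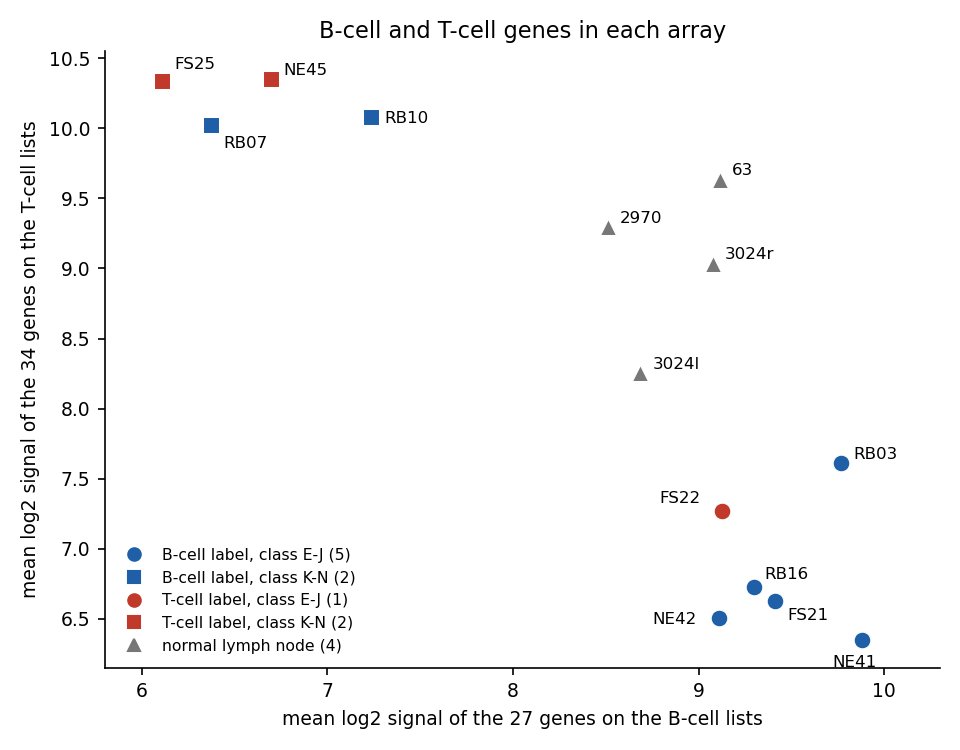
Mean log2 signal of the 27 tested genes on the B-cell lists (x axis) and of the 34 on the T-cell lists (y axis), 1 point per array, with colour for the label and shape for the class. RB07 and RB10 lie beside NE45 and FS25 at the upper left, FS22 lies among the 5 matched B-cell labelled arrays at the lower right, and the normal nodes lie between.

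Among the T-cell surface genes, CD5, a brake on antigen receptor signalling, had a distance of 4.59 between the classes. All 6 E-J arrays were far under a signal of 100 in it, and the distance was 1.68 with signals raised to 100. Its log2 signal was 9.06 in RB07 and 9.70 in RB10, and 1.93 to 3.29 in the other 5 B-cell labelled arrays. In the T-cell labelled arrays it was 8.32 in NE45, 9.58 in FS25 and 3.74 in FS22. TRAT1, an adaptor that stabilises the T-cell receptor, had 11.81 in RB07, 13.13 in RB10 and a median of 7.45 over all B-cell labelled arrays, against 12.54 in NE45, 13.45 in FS25 and 7.69 in FS22. Its difference between the labels was -3.41 (standard error 2.12, limma adjusted p = 0.956). CD28, the main co-stimulator of T cells, reached 11.60 in RB07 and 9.98 in RB10, against 11.53, 11.86 and 7.06 in NE45, FS25 and FS22. IL7R, the receptor for the survival cytokine of resting T cells, was 12.87 in RB07 and 12.67 in RB10, against 12.61, 14.22 and 9.88 in the same 3 T-cell labelled arrays. CD7, an early T-cell marker, was 8.26 in RB07, 8.87 in RB10 and 2.23 to 6.42 in the other B-cell labelled arrays, against 9.19 in NE45, 9.69 in FS25 and 7.42 in FS22. Here FS22 stood above the matched B-cell labelled arrays and below the K-N arrays.

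CD3D and CD3G, the other chains of the CD3 complex, were bright in every lymphoma. CD3D had 10.39 to 14.20 in the B-cell labelled arrays, with a median of 12.09, against 13.69, 13.80 and 11.93 in NE45, FS25 and FS22. Its difference was -0.92 (standard error 0.73, limma adjusted p = 0.956), and the normal nodes had 11.53 to 12.32. CD3G was 14.49 in RB07, 14.75 in RB10 and 9.29 to 12.90 in the other B-cell labelled arrays. Both genes still split the classes, by 0.51 for CD3D and 1.55 for CD3G, while their lowest values in the 5 matched B-cell labelled nodes were still far above a signal of 100.

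CD4 followed the class and CD8A did not. CD4, the co-receptor of helper T cells, was 10.46 in RB07 and 10.43 in RB10, and 6.80 to 8.10 in the other B-cell labelled arrays. It was 9.81 in NE45, 9.98 in FS25 and 6.79 in FS22. CD8A, the co-receptor of cytotoxic T cells, was 6.74 in RB07 and 4.37 in RB10, against 6.61, 5.90 and 3.99 in NE45, FS25 and FS22 and 6.59 to 7.36 in the normal nodes. CD8B, as the mean of its 2 probe sets, was at most 6.39 in the lymphomas, under a signal of 100, and 7.10 to 8.89 in the normal nodes, although single probe sets passed 100 in some lymphomas. The means of CD8A and CD8B reached 100 on too few arrays to be tested.

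The T-cell transcription factors followed the same order with 2 exceptions. GATA3, which directs T-cell development and helper fate, was 11.09 in RB07 and 11.70 in RB10, and 3.78 to 7.89 in the matched B-cell labelled arrays. It was 11.90 in NE45, 11.09 in FS25 and 6.09 in FS22. TCF7 was 9.28 in RB07 and 8.34 in RB10, against 8.79 in NE45, 9.06 in FS25 and 5.39 in FS22. LEF1, which acts with TCF7, was graded. It was 8.29 in RB07, 9.96 in RB10 and 3.54 to 7.73 in the matched B-cell labelled arrays, against 11.26 in NE45, 11.20 in FS25 and 7.25 in FS22, a difference of -3.89 (standard error 1.54, limma adjusted p = 0.956). RB07 and RB10 lay below NE45 and FS25 in LEF1, and so did they in SATB1, a chromatin organiser of T cells, with 9.67 and 10.43 against 11.52 and 10.94. RUNX3 and STAT4 overlapped between the labels and between the classes. STAT4 was lowest of all in NE45, at 6.13, against 9.87 in FS25 and 9.42 in FS22.

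Of the signalling genes, LCK, the first kinase to act below the T-cell receptor, was 9.52 in RB07 and 9.21 in RB10, and 6.02 to 7.29 in the matched B-cell labelled arrays. It was 10.19 in NE45, 9.40 in FS25 and 7.27 in FS22. THEMIS, needed for T-cell selection in the thymus, was 11.26 in RB07 and 11.10 in RB10, against 11.67 in NE45, 10.66 in FS25 and 5.19 in FS22. RASGRP1, an activator of Ras in lymphocytes, showed no such order, with 11.20 to 12.65 in B-cell and 11.48 to 11.87 in T-cell labelled arrays.

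B-cell genes ran the other way, less evenly. All 16 tested genes of B-cell identity had a difference above 0 (median 1.91), and none was called or separated the labels. By class, 12 of the 16, and 4 of the 11 B-cell transcription factors, were higher in every E-J array, against 6.82% of all genes. A gene could pass the filter through the E-J arrays alone. The mean over the 27 genes was 6.37 in RB07, 7.24 in RB10 and 9.11 to 9.88 in the matched B-cell labelled dogs, against 6.70 in NE45, 6.11 in FS25, 9.13 in FS22 and 8.51 to 9.11 in the normal nodes.

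CD22, an inhibitory receptor of B cells, was 5.09 in RB07 and 8.91 in RB10, and 11.81 to 13.91 in the other B-cell labelled arrays. In the T-cell labelled arrays it was 6.89 in NE45, 4.29 in FS25 and 12.44 in FS22, a difference between the labels of 3.19 (standard error 2.03, limma adjusted p = 0.956). FS22 sat inside the range of the matched B-cell labelled arrays. BANK1, an adaptor of B-cell receptor signalling, gave 3.51 in RB07 and 7.73 in RB10, against 6.20, 2.95 and 12.17 in NE45, FS25 and FS22. CD79B, the partner of CD79A, was 2.20 in RB07 and 7.39 in RB10, against 6.20, 2.91 and 10.47. BTK, a kinase below the B-cell receptor, was 7.52 in RB07 and 8.75 in RB10, against 7.26, 7.36 and 11.67. RB07 and FS25 were both under a signal of 100 in CD22, BANK1 and CD79B, where their values have no order, and RB10 was above NE45 in all 4 genes. EBF1 was 5.03 in RB07, 6.01 in RB10 and 8.75 to 9.73 in the matched B-cell labelled arrays, against 3.44 in NE45, 4.43 in FS25 and 8.49 in FS22. Its difference was 2.74 (standard error 1.28, limma adjusted p = 0.956). PAX5 was not tested, because the mean over its 5 probe sets, 3 of them dim, reached a signal of 100 on too few arrays. Its brightest probe set followed the class, with 6.07 in RB07, 6.99 in RB10 and 8.34 to 11.02 in the matched B-cell labelled arrays, against 1.70 in NE45, 4.46 in FS25 and 8.99 in FS22.

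MS4A1, which encodes CD20, was 1 of the 4 identity genes that did not follow the class, and FS22 was under a signal of 100 in it. It was 12.03 to 12.50 in the 5 matched B-cell labelled arrays, 10.40 in RB10 and 2.89 in RB07. In the T-cell labelled arrays it was 10.89 in NE45, 6.48 in FS25 and 4.90 in FS22. Both probe sets had a positive difference, 3.70 and 2.80, and the gene's difference was 3.25 (standard error 2.06, limma adjusted p = 0.956). MS4A1 therefore followed neither the label nor the class, with 1 high array (NE45) among the T-cell labels and 1 low array (RB07) among the B-cell labels. STAP1, an adaptor of B-cell receptor signalling, was 8.52 in RB07, 7.25 in RB10 and 8.43 to 10.49 in the other B-cell labelled arrays, against 2.46 in NE45, 6.16 in FS25 and 9.19 in FS22. RB07 and RB10 were above NE45 and FS25 here, but FS22 was inside the B-cell range. CXCR5, the receptor that guides B cells to follicles, split the classes, with 8.24 in RB07 and 5.37 in RB10, against 6.69, 5.62 and 10.29 in NE45, FS25 and FS22.

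**Figure D2:**
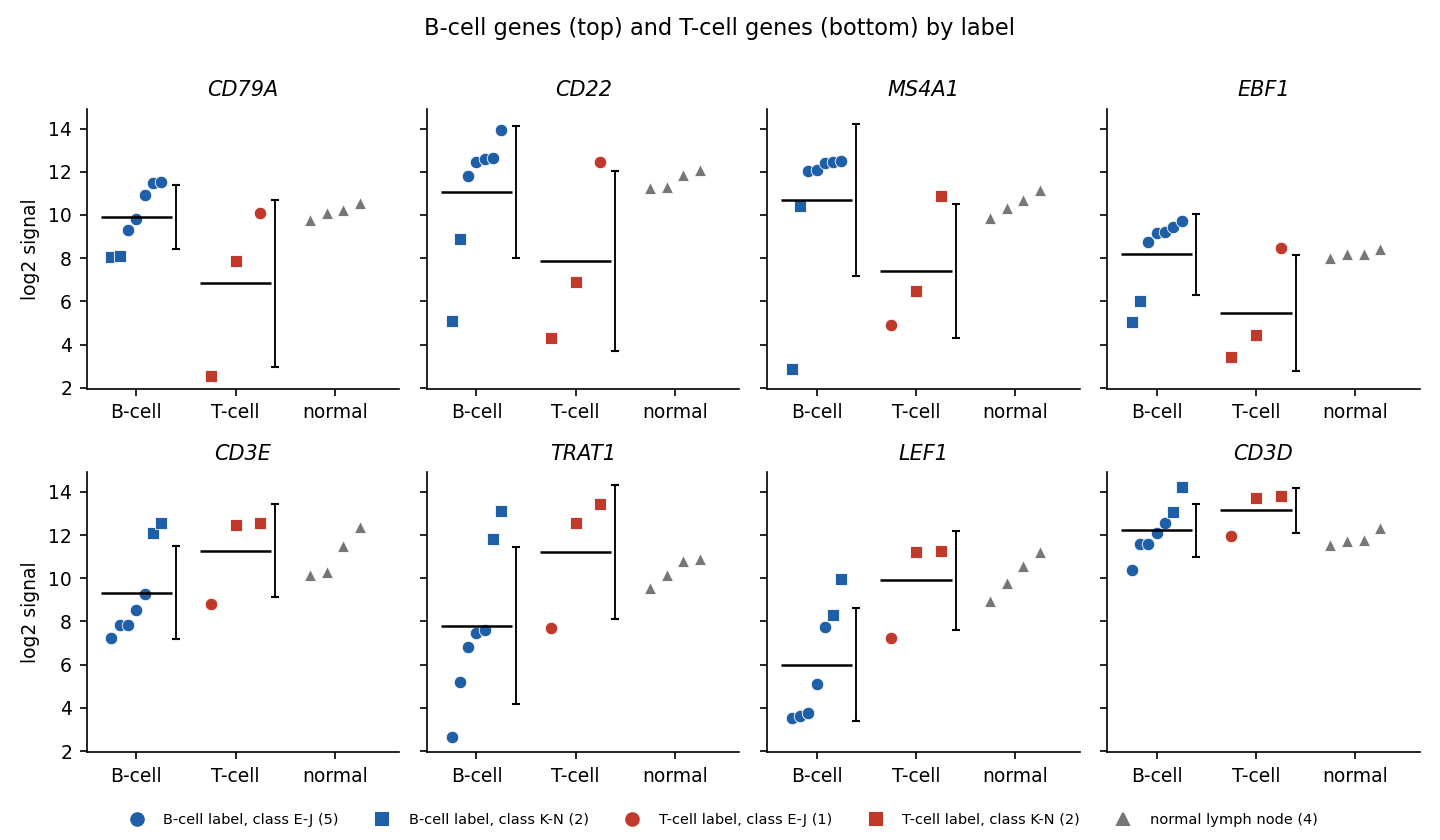
Log2 signal of 4 B-cell genes (top row) and 4 T-cell genes (bottom row) in each array by label, with circles for class E-J and squares for class K-N. Lines are means and bars are SD for the 7 B-cell and 3 T-cell labelled arrays, and the 4 normal arrays, 2 of them from 1 dog, are shown as points only. In every panel the labels overlap, and in all but MS4A1 the circles and squares do not.

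Across the transcriptome the class divided many more genes than the label did, and by wider distances. The 7 B-cell and 3 T-cell labelled arrays had no overlap in 75 genes (0.875%), 37 higher in B-cell (0.432%) and 38 higher in T-cell (0.444%). The 6 E-J and 4 K-N arrays had none in 989 (11.5%), 584 higher in E-J and 405 higher in K-N. The group sizes differ, and the classes came from such profiles, so the counts are given side by side without a test. The median distance between the nearest arrays of the groups was 0.12 for the 75 genes and 0.32 for the 989. Only 1 gene, LRG1, divided the labels by more than 1, against 173 genes for the classes. With signals raised to 100 the counts were 0 and 143, and the widest distance was that of DENND5B, at 4.26. Where a gene had more than 1 probe set, all of them divided the groups in 1 of 45 genes for the label (MCMBP) and in 198 of 640 for the class.

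**Figure D3:**
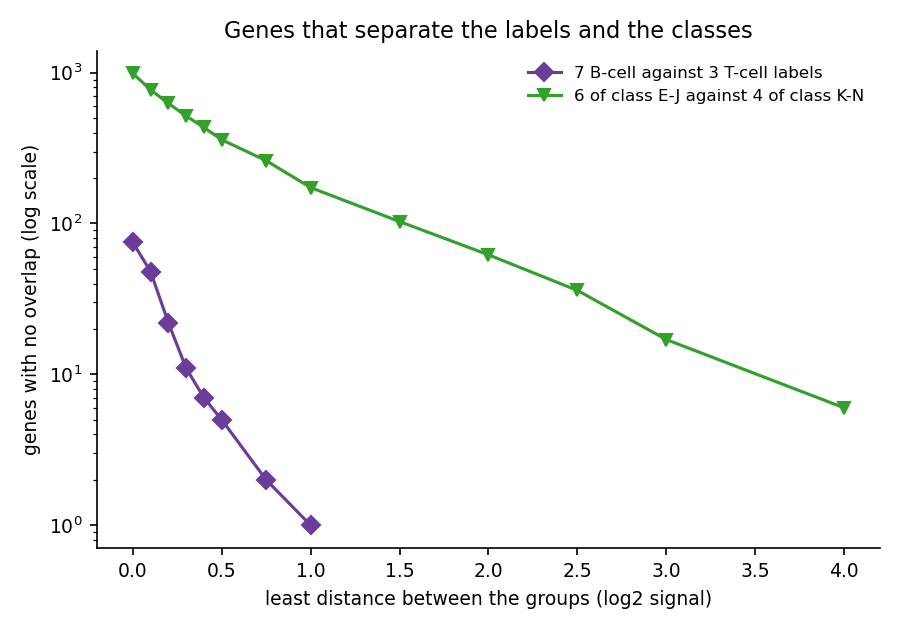
Number of genes with no overlap between groups (y axis, log scale) against the least distance required between them (x axis, log2 signal), for the labels and for the classes. The label curve starts at 75 genes and ends with 1 gene at a distance of 1, and the class curve starts at 989 and still holds 17 genes at a distance of 3.

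The 20 genes named for the widest distances between the classes, 10 in each direction, held genes of the lineage lists, such as CD5, TRAT1, GATA3, BANK1 and CD22, and others that are on no lineage list. PKHD1, the fibrocystin gene of polycystic kidney disease, was 4.95 in RB07 and 2.92 in RB10, and 9.27 to 10.61 in the matched B-cell labelled arrays. It was 2.26 in NE45, 2.63 in FS25 and 10.13 in FS22, and 3.01 to 6.52 in the normal nodes, all below the E-J arrays. PHEX, an endopeptidase of bone, had the same order, with 3.93 in RB07 and 6.20 in RB10, against 4.23, 4.75 and 9.62 in NE45, FS25 and FS22 and at most 5.85 in the normal nodes. KMO, an enzyme of tryptophan breakdown, was 6.67 in RB07 and 8.22 in RB10, against 6.43, 7.99 and 11.52. On the K-N side, SLC15A1, an intestinal peptide transporter, was 9.23 in RB07 and 12.29 in RB10, and 1.78 to 5.83 in the other B-cell labelled arrays. It was 11.28 in NE45, 10.46 in FS25 and 2.60 in FS22, and at most 7.08 in the normal nodes. GPC4, a glypican of the cell surface, was 8.92 in RB07 and 9.55 in RB10, against 10.37, 9.76 and 5.66. INPP4B, a phosphatase of phosphoinositides, was 10.32 in RB07 and 9.74 in RB10, against 10.62, 10.39 and 5.63. FS22 lay on the side of the matched B-cell labelled arrays in each of these genes by the way they were chosen, since every gene that follows the class has it there. DENND5B, KLHL14, PLEKHG1, LY86 and PTPRJ on the E-J side and CD52, ANK3 and RIMBP2 on the K-N side were also among the widest, at distances between 2.81 and 4.26. LY86, which pairs with a B-cell relative of the endotoxin receptor, was 4.29 in RB07 and 4.31 in RB10, against 3.85, 6.50 and 9.89 in NE45, FS25 and FS22. CD52, a small surface glycoprotein of lymphocytes, was 10.89 in RB07 and 11.41 in RB10, against 11.24, 11.34 and 6.80.

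The crossed dogs were then each placed on the genes that separate the matched dogs. The rule of no overlap used the matched dogs alone, but the filter on dim genes used all lymphoma arrays, the crossed dogs included. With the crossed dogs left out of the filter too, 1980 genes were separate, and the shares below are not given for that set. The 5 matched B-cell labelled arrays and the pair NE45 and FS25 had no overlap in 2138 genes (25%), 1175 higher in B-cell and 963 higher in T-cell. RB07 was nearer to the mean of NE45 and FS25 than to the mean of the 5 in 62.8% of these genes, RB10 in 65.6% and FS22 in 14.3%. With no filter on dim genes the shares were 57.9%, 60.5% and 20.2%, over 2860 genes. On a scale with the B-cell mean at 0 and the T-cell mean at 1, the median position was 0.70 for RB07, 0.71 for RB10 and 0.07 for FS22. The T-cell end rests on 2 arrays and the B-cell end on 5, and both helped to choose the genes, so distances from the 2 ends cannot be set against each other. In the 410 genes separated by at least 1, the shares were 74.6%, 76.1% and 5.37%. In the 2087 genes outside the B-cell and T-cell lists they were 62.1%, 65.1% and 14.5%. Of 31 such genes on the T-cell lists, 30 put RB07, 28 put RB10 and 2 put FS22 nearer to NE45 and FS25, and of 20 on the B-cell lists 16, 16 and 1 did. Some T-cell genes passed the filter only through RB07 or RB10, so these counts are a description. With the filter on the matched dogs alone, 11 T-cell surface, 6 signalling and 4 transcription factor genes were separated.

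**Figure D4:**
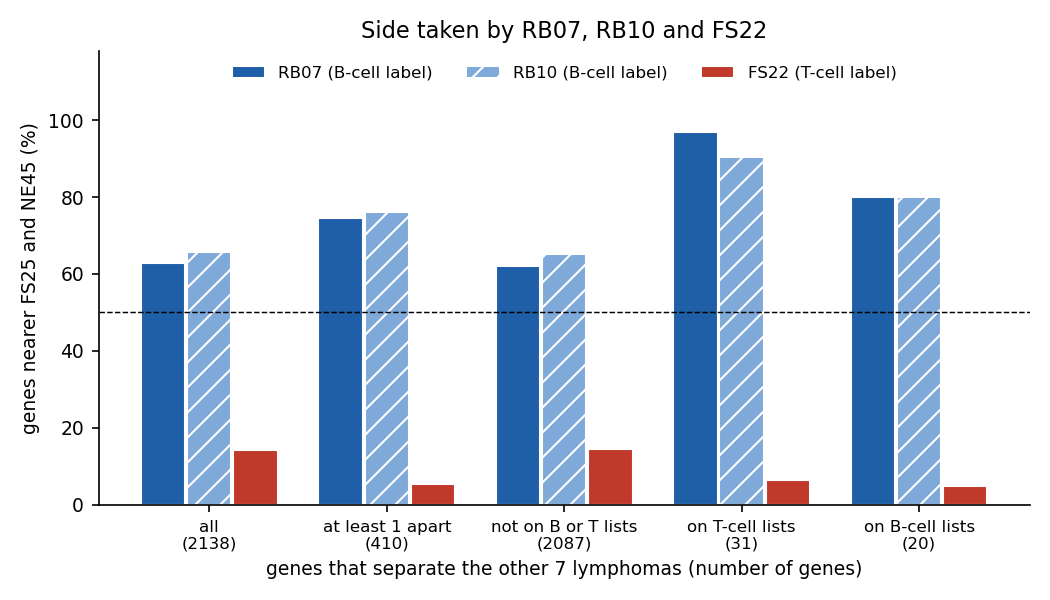
Share of genes (y axis, percent) in which RB07, RB10 and FS22 lay nearer to the mean of the T-cell labelled FS25 and NE45 than to the mean of the 5 matched B-cell labelled arrays, over 5 sets of genes (x axis, number of genes below each). RB07 and RB10 are above 50% in every set and FS22 is at or below 14.5%.

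Over the 3 dogs jointly, all lay on the side of their class in 829 of the 2138 genes (38.8%) and all on the side of their label in 53 (2.48%). All 3 were nearer the B-cell side in 297 genes and all 3 nearer the T-cell side in 128, and the remaining genes were divided in other ways. Among the 410 genes separated by at least 1, the counts were 238 with the class and 2 with the label. The 2 were TNFSF14 and GCNT4. GCNT4, an enzyme that builds branched O-glycans, was 2.91 in RB07, 5.08 in RB10 and 1.44 to 7.08 in the other B-cell labelled arrays, against 9.03 in NE45, 9.86 in FS25 and 6.53 in FS22. The labels still overlapped in it, since RB03 lay above FS22, and its difference was -4.91 (standard error 1.28, limma adjusted p = 0.956).

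The genes that did follow the label are given as a description, since none was called. Of the 37 higher in B-cell labelled arrays, 19 had all 10 arrays at a signal of 100 or more, and of the 38 higher in T-cell labelled arrays 21 had. Among the 10 named by the largest t in the B-cell direction, GLRX and TMEM64 were bright in this sense. GLRX, a glutaredoxin that reduces protein disulphides, had a lowest value of 8.88, a median of 10.14 and a highest of 10.93 in B-cell labelled arrays, against 8.52, 7.97 and 8.05 in NE45, FS25 and FS22. Its difference was 1.77 (standard error 0.45, limma adjusted p = 0.956), but only 1 of its 3 probe sets, with a signal of at most 258, had no overlap, and the other 2 differed by 0.75 and 0.74. TMEM64, a membrane protein with a single probe set, ran between 10.27 and 11.50, against 9.61, 9.20 and 10.00, a difference of 1.21 (standard error 0.33, limma adjusted p = 0.956). IDH1, the cytosolic isocitrate dehydrogenase, was 8.28 to 9.30 in B-cell labelled arrays, against 7.93, 7.48 and 8.06. Its difference was 0.96 (standard error 0.30).

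The other 8 of those 10 genes were under 100 in all T-cell labelled arrays. TNFSF14, the cytokine LIGHT of activated lymphocytes, was 4.79 to 6.93 in B-cell labelled arrays, against 3.45 in NE45, 2.26 in FS25 and 4.14 in FS22. PRLR, the prolactin receptor, was 3.77 to 7.20, against 1.34, 3.67 and 1.67. BTBD17 was 4.91 to 7.35, against 3.97, 3.42 and 3.85. Their differences were 2.97, 3.88 and 2.66, the B-cell labelled arrays reached a signal of 100 in 3 of 7 for each gene, and no T-cell labelled array did. With signals under 100 raised to 100, the mean of TNFSF14 was only 1.08-fold and that of PRLR 1.10-fold higher in the B-cell labelled arrays. CSTF2, PPP6R2, FHOD1, SYNE3 and DPM3 completed the 10 with the largest moderated t in this direction. CSTF2 rested on a probe set under 100 in all arrays, and its brighter probe set differed by -0.065.

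Among the genes higher in T-cell labelled arrays, UCHL1 had the largest difference of those named that did not overlap between the labels. UCHL1, a ubiquitin hydrolase best known from neurons, had a lowest value of 5.20, a median of 6.10 and a highest of 7.52 in B-cell labelled arrays, against 9.41 in NE45, 11.36 in FS25 and 7.73 in FS22. The difference was -3.32 (standard error 0.69, limma adjusted p = 0.956). FS22 stood just above NE41, the highest B-cell labelled array, and within the 7.23 to 8.46 of the normal nodes. Its probe sets differed by -5.15 and -1.50, and the groups were separate in the first only. With the mean of its probe sets raised to at least 100, UCHL1 was 6.65-fold higher in T-cell labelled arrays. With each probe set raised to 100 before averaging, the labels overlapped in UCHL1, at a distance of -0.26. ST8SIA4, which builds polysialic acid, was 7.60 to 8.73 in B-cell labelled arrays, against 10.14, 9.66 and 8.92 in NE45, FS25 and FS22. Its difference was -1.49 (standard error 0.35). REV3L, the catalytic subunit of a translesion DNA polymerase, was 9.29 to 10.33, against 10.76, 10.90 and 10.45, a difference of -0.90 (standard error 0.27). Its probe sets differed by -0.95 and -0.86, and the groups were separate in the first only. ATP11B, a lipid flippase, was 7.57 to 9.13, against 9.93, 9.99 and 9.16. Its only probe set without overlap had a signal of at most 158, and its brighter probe sets differed by -0.63 and -0.50. MCMBP, which binds the MCM replication helicase, was 9.09 to 10.15, against 10.45, 10.32 and 10.29, and both of its probe sets were separate. Its difference was -0.61 (standard error 0.27). ZNF263, a zinc finger repressor, was 7.89 to 8.80, against 9.01, 9.39 and 8.99.

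LRG1 had the widest distance between the labels, 1.11, at the edge of detection. This secreted glycoprotein of neutrophils and endothelium was 2.50 to 5.59 in B-cell labelled arrays, against 6.70, 6.79 and 6.72 in NE45, FS25 and FS22, and the normal nodes had 2.13 to 5.31. All 3 T-cell labelled arrays were thus above a signal of 100 by a small margin, and with signals under 100 raised to 100 they were 1.06-fold higher. GP9, a platelet glycoprotein, was 2.19 to 6.18, against 6.91, 7.56 and 7.05, a difference of -2.48. No B-cell labelled array reached a signal of 100 in GP9, and with signals raised to 100 it was 1.44-fold higher in T-cell labelled arrays. ALAS2, the haem enzyme of red cell precursors and the other tested gene on that list, overlapped, with 6.37 to 9.21 in B-cell labelled arrays against 7.57, 8.63 and 8.41. The part of blood in the aspirates was not tested. TPCN1, MTOR, TBC1D19 and SLC35A3 completed this direction. MTOR, the kinase of growth signalling, was 5.51 to 7.16, against 7.87, 7.49 and 7.31, but none of its 7 probe sets was separate alone. PIK3R2, a regulatory subunit of PI3-kinase, was 2.64 to 7.05, against 7.17, 7.48 and 7.95. Only 1 B-cell labelled array reached a signal of 100 in PIK3R2, and with signals raised to 100 it was 1.78-fold higher in T-cell labelled arrays. FRZB, a secreted Wnt antagonist, was 4.61 to 6.20, against 6.76, 6.70 and 6.88, with all 4 normal nodes higher still at 7.59 to 8.75. All B-cell labelled arrays were under a signal of 100 in FRZB, and with signals raised to 100 it was 1.10-fold higher in T-cell labelled arrays. IDH1, MCMBP, PIK3R2, FRZB and ZNF263 were named after their values were seen, from the genes that stayed separate under every scaling and summary tried.

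**Figure D5:**
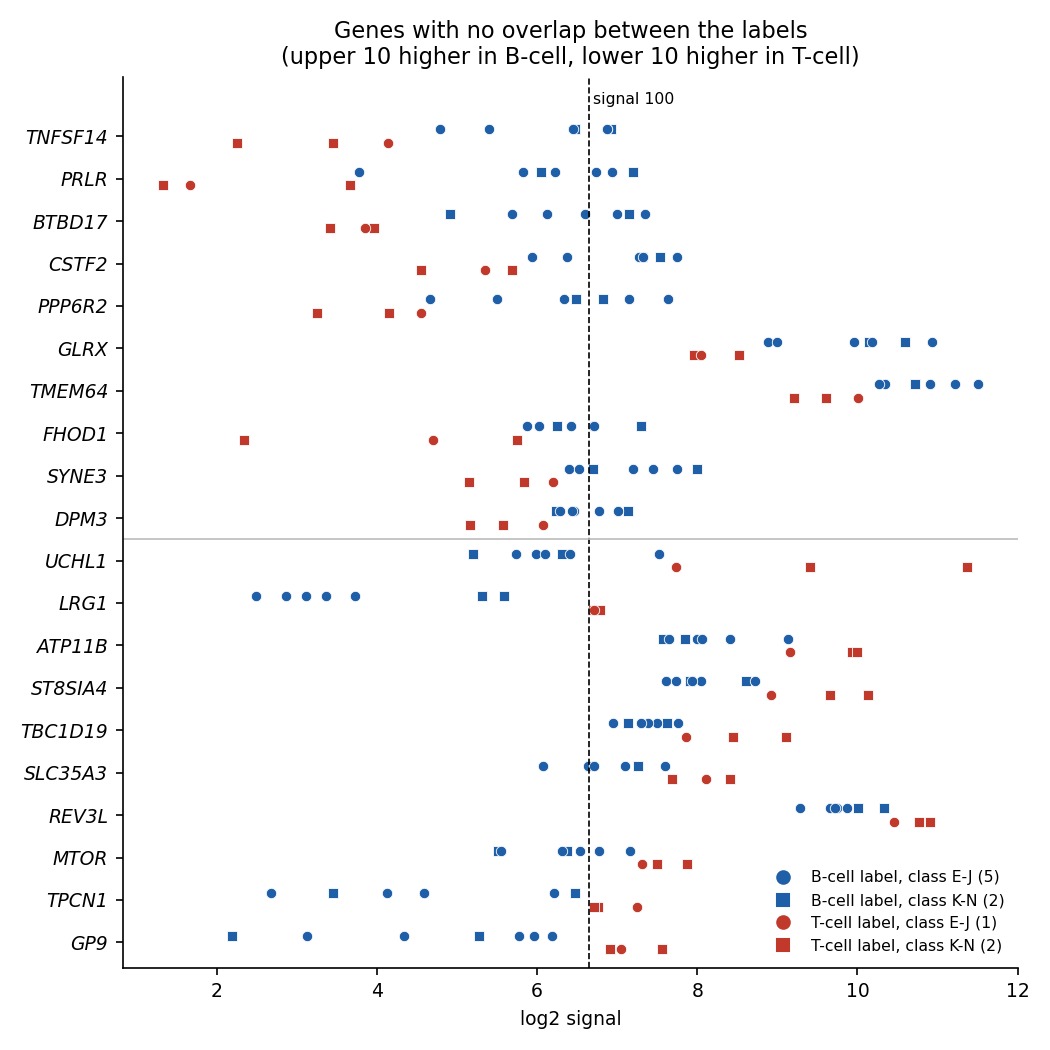
Log2 signal of the 20 genes without overlap between the labels that had the largest moderated t in each direction, 1 point per lymphoma array, with B-cell labelled arrays on the upper line of each gene and T-cell labelled arrays on the lower. The dashed line is a signal of 100. In 11 of the genes all arrays of 1 group lie below that line, and GLRX, TMEM64, ATP11B, ST8SIA4, TBC1D19 and REV3L have both groups above it.

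Of the 75 genes, 21 had 1 group entirely under a signal of 100 and 40 had all 10 arrays at or above it. Under other choices of scaling, floor, pseudocount and gene summary between 56 and 81 genes were separate, and between 35 and 59 of the 75 were among them. Only 15 of the 75 stayed separate under all 6 choices, against 540 of the 989 that followed the class.

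The remaining gene lists showed which other cells and states moved with either grouping, and 0 of their members were called in the label comparison (limma, adjusted p under 0.05). Among genes of T-cell activation, ICOS, a helper T-cell co-stimulator, followed the class, with 10.94 in RB07 and 9.75 in RB10, against 10.76 in NE45, 11.24 in FS25 and 7.57 in FS22. CTLA4, an inhibitory receptor, overlapped between the classes in the mean of its 2 probe sets. It was 7.40 in RB07, 5.50 in RB10 and 2.05 to 6.93 in the other B-cell labelled arrays, against 8.88 in NE45, 10.67 in FS25 and 4.98 in FS22, with RB10 below some E-J arrays. Its bright probe set alone followed the class, with 11.68 in RB07, 9.98 in RB10 and 2.71 to 8.08 in the other B-cell labelled arrays, against 10.91 in NE45, 12.92 in FS25 and 7.52 in FS22. IL2RA, the high-affinity IL-2 receptor chain, was higher in E-J, with 3.63 in RB07 and 6.72 in RB10, against 1.66, 6.48 and 9.16 in NE45, FS25 and FS22. CCR4, a chemokine receptor of helper and skin-homing T cells, was 10.26 in RB07 and 10.91 in RB10, against 10.34 in NE45, 9.21 in FS25 and 1.27 in FS22. The B-cell labelled RB16 also had it, at 10.13, while FS21 had 1.35, and the classes overlapped.

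Cytotoxic genes split in several ways. CTSW, a protease of cytotoxic lymphocytes, followed the class, with 10.05 in RB07 and 10.50 in RB10, against 11.61, 11.21 and 6.38 in NE45, FS25 and FS22. GZMA, granzyme A, overlapped between the labels in 1 array only, with 4.75 to 9.27 in B-cell labelled arrays and 7.91 in RB07 and 8.39 in RB10, against 2.69 in NE45, 6.63 in FS25 and 3.18 in FS22. Its difference was 3.35 (standard error 1.00, limma adjusted p = 0.956), and NE41 was the only B-cell labelled array below FS25. NE41 and all T-cell labelled arrays were under a signal of 100 in GZMA, where their values have no order. With signals under 100 raised to 100, GZMA was 2.20-fold higher in B-cell labelled arrays. CD160, a receptor of NK and cytotoxic T cells, was highest of all in RB10, at 13.59, with 10.45 in RB07, 6.89 to 9.97 in the other B-cell labelled arrays, 7.42 to 10.23 in the T-cell labelled arrays and at most 11.00 in the normal nodes.

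DNTT, the terminal transferase of immature lymphocytes, singled out individual dogs. It was 10.07 in RB16 and 9.84 in FS21, at most 3.81 in the other B-cell labelled arrays, 6.83 in FS22, 1.16 in NE45 and 3.84 in FS25, and 5.90 to 7.23 in the normal nodes. RAG1, of the recombinase that acts with it, was under 100 in every lymphoma. Among germinal centre genes, BCL6, the repressor that drives the germinal centre, was higher in K-N, with 12.26 in RB07 and 11.01 in RB10, against 11.15, 11.34 and 8.85 in NE45, FS25 and FS22. The other B-cell labelled arrays had 7.32 to 8.85, and the normal nodes 10.71 to 12.40. MEF2C, ELL3 and LMO2 of the same list were higher in E-J, for example LMO2 with 10.24 in RB07 and 10.13 in RB10, against 8.45, 8.87 and 12.08.

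MHC class II genes, which present antigen on B cells and myeloid cells, separated neither grouping. All 9 had a label difference above 0, with a median of 0.59 against 0.003 over all genes, and none had an unadjusted limma p under 0.05. By class the median difference, E-J minus K-N, was 1.17 against 0.06 over all genes. Their mean was 11.10 in RB07, 11.39 in RB10 and 11.13 to 12.90 in the other B-cell labelled arrays, against 10.34 in NE45, 11.01 in FS25 and 12.76 in FS22. Genes of the cell cycle mostly had label differences below 0. Of 26 mitosis genes 22 and of 29 replication genes 25 had a difference below 0, with medians of -0.32 and -0.39. The mean of the mitosis genes was 8.35 to 9.45 in B-cell labelled arrays, against 9.70, 9.30 and 8.91 in NE45, FS25 and FS22 and at most 8.13 in the normal nodes. TOP2A, the topoisomerase of dividing cells, was 13.75 in RB07 and 13.26 in RB10, against 13.54, 13.76 and 12.57 in NE45, FS25 and FS22, and split the classes by 0.30. The mean of the replication genes was 8.33 to 9.43, against 9.38, 8.81 and 9.31.

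The 5 drug efflux genes had a median difference of -0.47, and 1 of them was higher in every E-J array (ABCC1) and 1 in every K-N array (ABCC5), against 6.82% and 4.73% of all genes. ABCC1, a drug and conjugate exporter, was 8.48 in RB07 and 7.28 in RB10, against 7.69 in NE45, 8.90 in FS25 and 9.22 in FS22. ABCC5, of the same family, was far wider apart, with 7.91 in RB07 and 9.71 in RB10, against 7.77 in NE45, 8.13 in FS25 and 4.53 in FS22.

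Markers of other cell types did not divide the labels as groups. The 18 myeloid genes had a median difference of 0.06, the 17 stroma genes -0.08 and the 9 endothelial genes 0.21. The summed level of myeloid genes, as a mean, was 7.38 to 9.17 in B-cell labelled arrays with the highest value in RB07, against 7.52, 8.63 and 8.60 in NE45, FS25 and FS22. Stroma genes were also highest in RB07, at 9.09, and CD14, a monocyte marker, was 11.60 there against at most 8.17 in the other B-cell labelled arrays. The 9 plasma cell genes had 8.07 to 9.24 in B-cell and 7.87 to 8.91 in T-cell labelled arrays, below the normal nodes, which had 9.83 or more. MARCO, a macrophage scavenger receptor, was 6.69 to 8.85, against 4.00, 7.82 and 10.73, and 12.71 to 15.00 in the normal nodes. The part of these cells in the other results was not tested.

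The clinics and breeds were not balanced over the groups. The clinics FS and NE each held dogs of both labels, and within them CD79A differed by 5.20 and 2.53, CD3E by -2.82 and -4.37, and UCHL1 by -3.82 and -2.45. The clinic RB held B-cell labelled dogs only. All 3 unmixed Boxers (RB07, RB10 and FS25) were in K-N, so that for those 3 dogs breed and class cannot be told apart. NE45, the other K-N dog, was a Golden Retriever. With clinic, earlier chemotherapy or Boxer breed as a term, limma called 0 genes, as it did without them, and listed 572, 416 and 439 at an unadjusted p under 0.05.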

How the data were processed

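RNA from 14 lymph node samples was amplified with WT-Ovation Pico and hybridised to GeneChip Canine Genome V2.0 arrays. The deposited intensity values are MAS5 signals on a linear scale (version not given in the sources used here), which the authors scaled to a trimmed mean of 500 per array; detection calls were not used. Which arrays shared a laboratory batch is not given in the sources used here. Of 43035 probe sets, 29254 with exactly 1 symbol in the array's gene table were taken to log2 and averaged into 15115 genes. The 8567 genes that reached a signal of 100 on 3 or more of the 10 lymphoma arrays were tested with limma 3.58.1 in R 4.3.3 (lmFit, eBayes, Benjamini-Hochberg, threshold 0.05). Profiles were compared by permutational analysis of variance (vegan 2.7.1) over all 120 assignments, and 3 genes by an exact permutation test. A gene followed a grouping when its groups had no overlap. Genes were named for staining, for the largest moderated t among the genes that followed the label, for the widest distance among those that followed the class, and as list members. The members and lists were chosen with earlier results of these data known, and the positions of the crossed dogs were added after the label comparison was seen. On 1 simulated data set of 8567 genes that held both kinds of change, limma found 88 of 100 genes changed by 4 and 50 of 100 changed by 2 on the log2 scale. It made 8 false calls in that data set. The simulated noise was independent between genes and arrays, unlike values that follow the class, so these rates may not hold for the real arrays. Each array is 1 dog for the lymphomas, so replicates are dogs. Alternatives changed the filter, scaling, pseudocount, floor, gene summary, test, covariates and arrays. Plots used Python 3.11.15 and matplotlib 3.10.9.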

Additional observations from a re-analysis of the deposited data

Results flagged for a closer look

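Single arrays stood apart from the rest of their group in 13 of 184 gene and group combinations. The genes were those named in the report, some of them for their values in these arrays, so no chance rate applies to this count. Among the B-cell labelled arrays, RB07 was lowest in MS4A1 (2.89) and in CD79B (2.20) and highest in CD14 (11.60). NE41 was lowest in PRLR (3.77) and FRZB (4.61), and FS21 was lowest in GSDMC (1.86). Among the 4 normal arrays, node 3024l was lowest in CD7 (6.08), PLEKHG1 (4.43), GPC4 (5.95) and CTLA4 (5.58), and its GAPDH 3′ to 5′ ratio was 23.2. Node 63 was lowest in TNFSF14 (1.71) and highest in PAX5 (6.61), and node 2970 was highest in LRG1 (5.31). These values are given without an explanation.

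Within the clinics FS and NE, which held both labels, 4 of the genes named had every B-cell array on one side of the T-cell arrays in FS and on the other side in NE, and the difference between clinics was not tested. The values in FS and NE were -0.48 and 0.37 for RASGRP1, 2.80 and -2.28 for RUNX3, -1.61 and 3.21 for STAT4, and -0.98 and 3.37 for GSDMC. IL2RA (-0.16 and 7.64) and MARCO (-1.43 and 3.20) also differed in sign, with overlapping arrays in FS. Each clinic held at most 3 labelled lymphomas, and FS21 alone gives the B-cell value in FS.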

How the results depend on the processing

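Arrays from 7 and 3 dogs limit what the label comparison can show, and many lymphoma signals lay near 100. No paired analysis was possible because the labels number only the normal nodes of 1 dog. The count of genes without overlap between the labels, 75 in the report, was 192 when dim genes were kept, 46 with a filter at a signal of 200, and 96 to 785 with 1 array left out. The highest of these was without FS22, and it was 228 without FS25, 207 without NE45, 154 without RB10, 129 without RB07 and 119 without RB16. Leaving out an array cannot create an overlap in a gene, so the higher counts follow in part from the rule itself. Genes called higher in B-cell numbered 0 to 1 with 1 array left out.

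Without RB07, RB10 and FS22, leaving 5 B-cell and 2 T-cell labelled arrays, limma called 194 genes higher in B-cell and 73 higher in T-cell. The labels then equal the classes, so 1980 genes had no overlap for either grouping, and the label took 35.6% of the variance. Called members were 9 of 16 tested for B-cell identity, 3 of 11 B-cell transcription factors, 6 of 11 T-cell surface, 1 of 7 T-cell signalling, 3 of 6 T-cell transcription factors and 6 of 9 germinal centre genes, against 3.39% of 7867 genes. The median difference was -2.88 for T-cell signalling and -4.44 for T-cell transcription factors, and CD3E differed by -4.38. Because these 3 arrays were left out for their expression class, all these values and counts are a description and no test of the label. With clinic as a term the median of the T-cell transcription factors was -3.57.

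Of 910 alternative gene differences, 906 kept their direction. The others were ABCB1 (0.15), CSTF2 (-0.033) and ZNF804A (-0.36) with signals raised to at least 100, and CSTF2 (-0.065) with the brightest probe set. The cause was not tested. With 1 array left out, CD79A ranged between 0.91 and 4.68 and CD3E between -3.18 and -1.30. Over all alternatives other than leaving out arrays, the share of variance by class ranged between 18.9% (dim genes kept) and 41.2% (signal of at least 200), against 30.8% in the report.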
